A study of Mus musculus with 10 samples.

Results

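Of the 29883 genes counted in the nucleus accumbens (NAc) of mice of the strains DBA/2J (D2) and C57BL/6J (B6), 100 had reads almost only in D2, and 72 of them were annotated as pseudogenes. These D2-restricted genes were selected on the strain difference itself. Their median over the 5 D2 libraries was at least 0.5 CPM (the count scaled to the library's total), and their median over the 5 B6 libraries was under 5% of the D2 median. Stab2, the strain control gene of the study, also met these limits and was left out. The strain contrast of the 100 genes is therefore given as a description, without a test.

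The study set out to compare the expression and splicing of Ninein between these progenitor strains of the BXD panel, which respond differently to ethanol, and its gene count table is used here for other genes. All 10 mice were ethanol-naive males, 9 weeks old by the study's methods, of the inbred strain C57BL/6J or DBA/2J. The NAc was dissected as tissue from each mouse and 1 poly(A) RNA library was sequenced per mouse. Each strain is 1 inbred line, so strain cannot be told apart from anything else shared by the mice of a strain. The libraries held 96977262 to 116776714 counted reads, and the 8 striatal neuron markers examined, such as Drd1 and Drd2, summed to 3100 to 4770 CPM in every library. In such bulk tissue, fewer cells of a type and less RNA per cell cannot be told apart.

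A processed pseudogene, or retrocopy, is a copy of a spliced messenger RNA that was reverse transcribed and inserted elsewhere in the genome. It usually lacks introns, and it may differ from its parent gene by only a few bases. A new insertion or a base change after the strains separated can be present in 1 inbred strain and absent from the other. The mouse reference genome is that of C57BL/6J, and all 100 D2-restricted genes have an annotated position in it. Reads of DBA/2J mice are therefore aligned to the copies and bases of B6, and a read from a near-identical pair is placed by the few bases that differ.

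The 6 pairs below, taken from the GRCm39 reference, were chosen from the 25 genes of highest level among those with 5 or fewer mismatches to a coding gene, to show how few bases can separate the 2. Each pair below shows a D2-restricted gene and its near-identical coding gene around a base at which they differ, with that base in capitals. The stretches are given 5′ to 3′ on the strand of the gene and lie in exons, within the coding sequence of the coding gene. They are reference sequences of B6, and the D2 alleles were not analysed here.
Gm13394 (chr2:28824262-28824290, minus strand): agggtggagccaaaCgggtcatcatctcc
Gapdh (chr6:125139965-125139993, minus strand): agggtggagccaaaAgggtcatcatctcc
Gm15459 (chr5:5833428-5833456, minus strand): ggtaaccgcaccacAccaagctatgttgc
Hspa8 (chr9:40713318-40713346, plus strand): ggtaaccgcaccacGccaagctatgttgc
Atp6v0c-ps2 (chr6:37783117-37783145, plus strand): ggcacagccaagagCggcactggcatcgc
Atp6v0c (chr17:24383811-24383839, minus strand): ggcacagccaagagTggcactggcatcgc
Gm6969 (chr12:24688687-24688715, minus strand): tactgcctgatcgcTctctacatggcctc
Cox7a2l (chr17:83810051-83810079, minus strand): tactgcctgatcgcCctctacatggcctc
Rnps1-ps (chr6:7983199-7983227, minus strand): tctaggtccagctcAacctccagctcggg
Rnps1 (chr17:24639181-24639209, plus strand): tctaggtccagctcCacctccagctcggg
Gm28438 (chr1:24652184-24652200, minus strand): atCaacctgtacactgt
mt-Nd3 (chrM:9459-9475, plus strand): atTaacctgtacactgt
For Gm13394 the base shown was the only mismatch in 1000 aligned bases, and for Gm28438 the only mismatch in 345. Atp6v0c-ps2 and Gm6969 also had 1 mismatch each, beside 4 and 6 gap bases. Gm15459 had 5 mismatches and 4 gap bases against Hspa8 in 1945 aligned bases, and Rnps1-ps had 5 mismatches against Rnps1 in 843. Other genes of high level differed more, with 38 mismatches for Tpm3-rs7 against Tpm3, 20 for Gpi-ps against Gpi1 and 12 for Gm8730 against Rplp0.

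One B6 library stood apart for these genes and is described before the levels. B6 replicate 4 was the highest of the B6 libraries for 95 of the 100 genes. The median gene reached 6.55% of its D2 mean in that library, against 1.97% in B6 replicate 1, 0.863% in replicate 2, 1.36% in replicate 3 and 1.38% in replicate 5. For the 23 genes with a D2 median of at least 10 CPM, the level in B6 replicate 4 lay between 4.07% and 7.52% of the D2 mean. Replicate 2 was the lowest B6 library for 57 genes.

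Values of other genes can be set beside this. Among 157 further genes called higher in D2 by at least 1 log2 unit, with a mean of at least 100 counts, the median gene of B6 replicate 4 lay 4.71% of the way from the other B6 libraries to D2. The values for the other B6 libraries were between -4.29% and 1.65%. For 195 genes called lower in D2, the median gene of B6 replicate 4 lay 5.14% of the way to D2. Its quartiles were wide, at -8.28% and 17.8%, against 0.256% and 10.1% for the genes called higher. The medians of the other B6 libraries for these 195 genes were between -8.02% and 3.5%. The 49 genes found by the same rule with the strains exchanged summed to 256.8 CPM in B6 replicate 4, within the 248.0 to 270.0 CPM of the B6 libraries, and in the D2 libraries their medians were 1.16% to 2.3% of the B6 mean. The source of the level in B6 replicate 4 was not tested. Leaving that library out gave 113 D2-restricted genes, which held all 100.

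**Figure D1:**
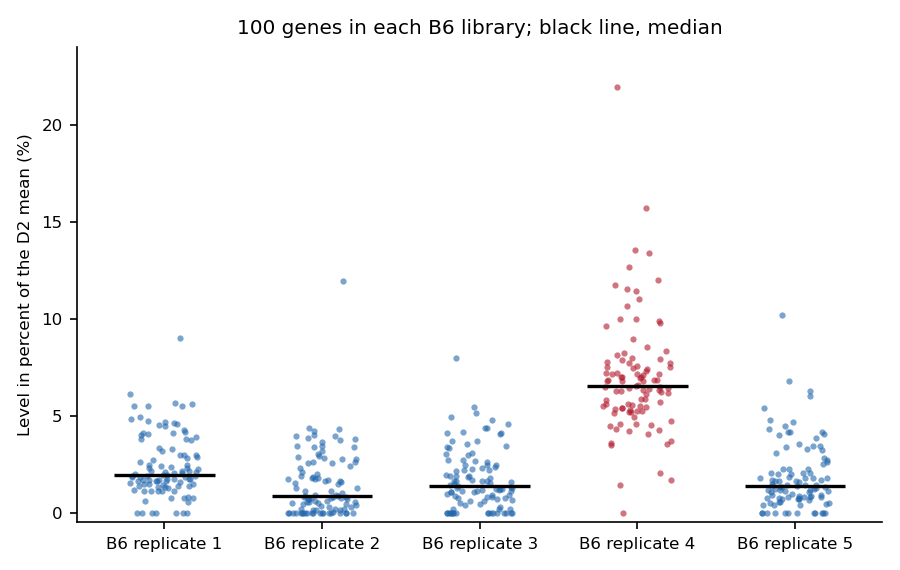
Level of the 100 D2-restricted genes in each B6 library, in percent of the gene's D2 mean. Each point is 1 gene and the black line is the median of a library, which was 6.55% in B6 replicate 4 (red) and between 0.863% and 1.97% in the other libraries (blue).

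The summed level of the 100 genes was 1266, 1235, 1224, 1223 and 1280 CPM in D2 replicates 1 to 5, a mean of 1246 ± 25.7 CPM (SD, n = 5). In B6 replicates 1 to 5 it was 25.54, 12.02, 18.96, 79.29 and 18.51 CPM, a mean of 30.86 ± 27.49 CPM (SD, n = 5). The B6 mean was thus 2.48% of the D2 mean, and 1.51% without B6 replicate 4. The first 2 genes by level held 30.6% of the D2 sum and the first 5 held 47.5%.

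Single genes spanned D2 medians of 0.534 to 200.2 CPM, with a median of 3.13 CPM. A D2 median of at least 10 CPM was found for 23 genes, 56 lay between 1 and 10 CPM, and 21 were under 1 CPM. The B6 median was under 1% of the D2 median for 24 genes, 1% to 3% for 50 and 3% to 5% for 26. In all 100 genes each D2 library was above each B6 library, which held for 8.74% of the genes of the table and follows closely from the selection. None of the genes was at 0 counts in all 5 B6 libraries. At least 1 count was present in every B6 library for 67 genes, and 6 had a B6 median of 0 counts.

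The limits of the rule cut through a continuous range of values. Just inside the 5% limit were Gm57302 at 4.994%, Gm6937 at 4.797%, Eif3j2 at 4.681% and Gm6368 at 4.351%. Gm17017 at 5.038%, Gm14029 at 5.106%, Gm7729 at 5.127% and Rps3a2 at 5.338% were just outside. At the floor of 0.5 CPM, Gm10350 (0.5339 CPM), Ccdc7a (0.539 CPM) and Gm6937 (0.5611 CPM) were inside by their D2 medians, whereas Ctse (0.4783 CPM), Rps15a-ps8 (0.4453 CPM) and Gm13200 (0.4309 CPM) were not.

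By biotype, 64 of the 100 genes were processed pseudogenes, of which 11 were annotated as transcribed, and 8 were unprocessed pseudogenes. Another 14 were protein coding, 13 were long noncoding RNAs (lncRNAs) and 1 was a small nucleolar RNA. Pseudogenes of any kind made up 72.0% of the D2-restricted genes, 10.1% of the annotated genes in the table and 2.23% of those with a D2 median of at least 0.5 CPM. Protein-coding genes were 14 of the 100, and made up 58.7% and 85.2% of the other sets. Exons merged to a single block in 75 of the genes, against 24.6% and 9.18% of the other sets. A provisional Gm, Rik or clone name was borne by 62, against 38.3% and 14.4%. Processed pseudogenes held 74.7% of the summed D2 level of the 100 genes.

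By chromosome, 11 genes lay on chromosome 2, 9 on chromosome 17, and 8 each on chromosomes 1, 5 and 7. In this order, these chromosomes held 7.27%, 4.72%, 6.86%, 6.87% and 7.72% of the annotated genes in the table. Chromosome 18 held 7, or 7.0% of these genes, against 2.75% of the annotated genes in the table. Chromosomes 16 and Y held none, against 2.92% and 0.0542% of the annotated genes in the table. Runs of neighbouring members formed when members within 1 Mb of each other were joined. The longest was a run of 4 on chromosome 17 in the major histocompatibility region, Gm56899, Gm18734, H2-T15 and Gm65065, between positions 35266090 and 36457015. The other run of 3 or more genes was Gm14150, Rps15a-ps7 and Gm14165 on chromosome 2, between 151300876 and 152196486.

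**Figure D2:**
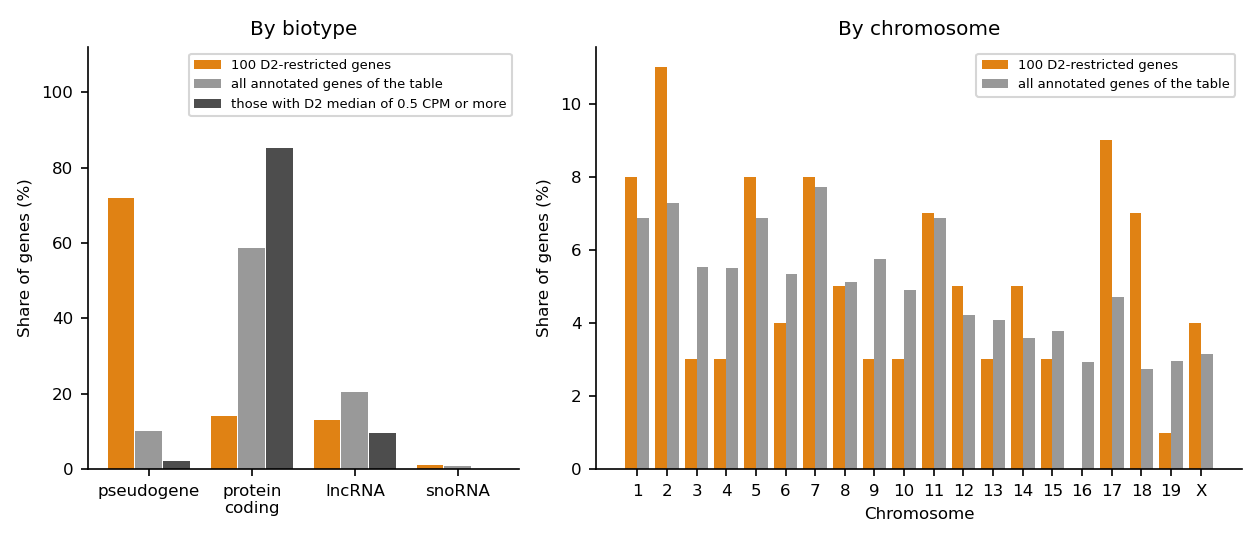
Share of genes (%) by biotype (left) and by chromosome (right) for the 100 D2-restricted genes (orange) and for all annotated genes of the table (grey), with genes of at least 0.5 CPM in D2 added on the left (dark). Pseudogenes reached 72.0% of the D2-restricted genes against 10.1% and 2.23%, and the chromosome shares stood furthest above those of the table on chromosomes 2, 17 and 18.

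Gm13394 had the highest level. It is a transcribed processed pseudogene on chromosome 2 whose near-identical gene, Gapdh, encodes a glycolytic enzyme. It was at 203.0, 200.2, 198.4, 199.9 and 216.7 CPM in D2 replicates 1 to 5. In B6 replicates 1 to 5 it was at 2.673, 0.09615, 1.196, 10.94 and 0.8689 CPM. The D2 libraries lay close together, and the B6 libraries spread widely around much lower values.

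Gm15459 on chromosome 5 is near-identical to Hspa8, which encodes a constitutive heat shock chaperone. It was at 192.3, 172.6, 171.6, 172.9 and 179.1 CPM in D2. The B6 libraries held 5.32, 3.577, 5.434, 12.42 and 4.603 CPM. B6 was therefore at 3.076% of D2 by the medians, a larger share than the 0.5973% of Gm13394.

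Atp6v0c-ps2 on chromosome 6 resembles Atp6v0c, a subunit of the proton pump that acidifies vesicles. Its D2 values were 79.95, 72.73, 77.31, 71.94 and 74.02 CPM. Its B6 values were 1.382, 0.5288, 0.9281, 4.387 and 1.072 CPM. Per kb of exon it came second, with a D2 median of 159.2 CPM per kb after the 200.2 CPM per kb of Gm13394, and Gm6969 (91.72 CPM per kb) and Gm15459 (89.10 CPM per kb) followed.

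Rpsa-ps10 on chromosome 3, near-identical to the ribosomal protein gene Rpsa, was at 65.65 to 72.95 CPM in D2 and 0.5192 to 4.949 CPM in B6. Of the 100 genes, 11 were near-identical to 7 ribosomal protein genes, and no share over all genes was computed for this count. Gm8730 resembles Rplp0 and was at 30.94 to 36.55 CPM in D2 and 0.125 to 2.07 CPM in B6. Rps18-ps6, annotated as protein coding, was at 14.87 to 17.11 CPM in D2 and 0.01923 to 1.006 CPM in B6.

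Eno1b and Gm4735 are both near-identical to Eno1, which encodes the glycolytic enzyme enolase. Eno1b was at 63.15 to 68.76 CPM in D2 and 0.125 to 3.648 CPM in B6. Gm4735 was at 28.24 to 33.00 CPM in D2 and 0.2692 to 1.972 CPM in B6. Another glycolytic copy, Gpi-ps, resembles Gpi1 and was at 38.05 to 40.85 CPM in D2 and 0.6442 to 2.968 CPM in B6.

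Among the remaining genes of high level, Tpm3-rs7, an intronless relative of the tropomyosin gene Tpm3, was at 48.43 to 51.15 CPM in D2 and 0.375 to 3.53 CPM in B6. Tmem181c-ps, an unprocessed pseudogene of 16 exons on chromosome 17, was at 34.56 to 36.86 CPM in D2 and 0.0673 to 1.785 CPM in B6. Gm28438 on chromosome 1, whose sequence repeats that of the mitochondrial gene mt-Nd3, was at 16.63 to 19.99 CPM in D2 and 0.2019 to 1.321 CPM in B6. For each of these genes the top of the B6 range was B6 replicate 4.

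**Figure D3:**
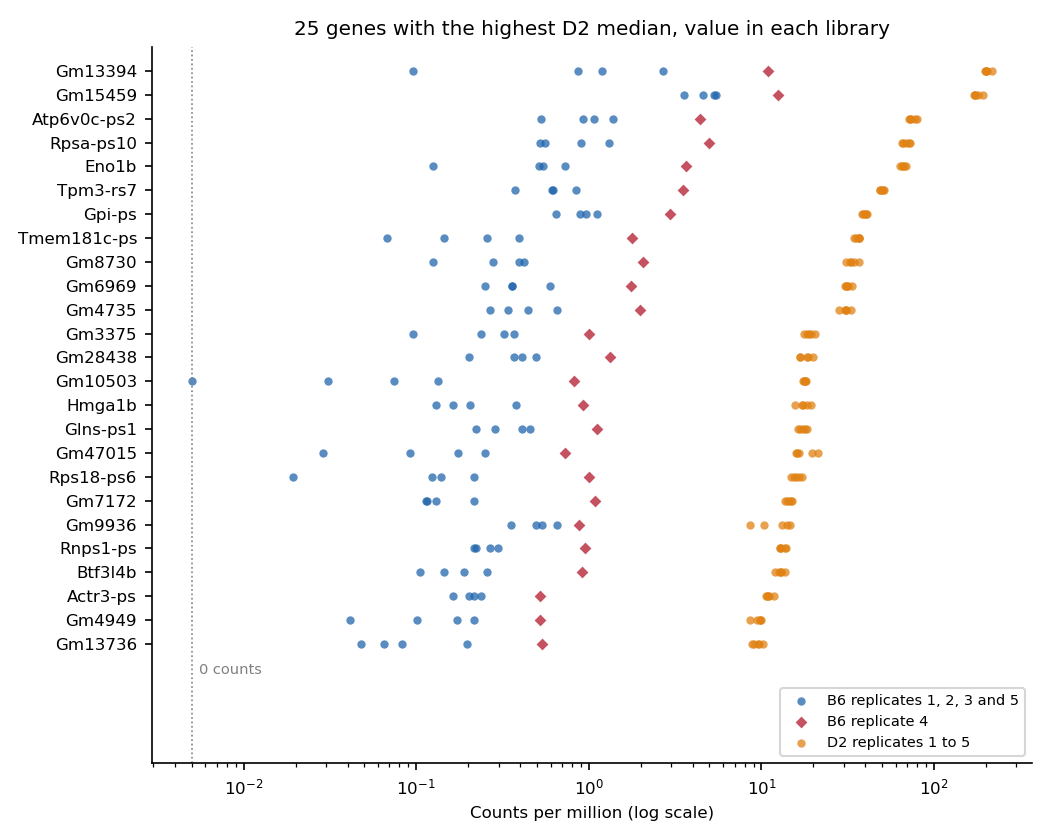
CPM on a log scale of the 25 D2-restricted genes with the highest D2 median, 1 point per library. D2 libraries (orange) sit close together at the right of each row, and B6 replicate 4 (red diamonds) lies to the right of the other B6 libraries (blue) in all 25 rows, and the single value at 0 counts is drawn on the dotted line.

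The D2 libraries agreed closely for the genes of high level. For those with a D2 median of at least 10 CPM the median coefficient of variation was 4.59%, beside 4.12% for all genes above that level. A coefficient of at least 20% was found for 7 genes, Gm9936, C330024D21Rik, Mael, Rps15a-ps6, Gm57302, Ccnb1ip1 and Ccdc7a, named here for their spread after it was seen. Gm9936, a lncRNA on chromosome 5, ranged from 8.637 to 14.68 CPM among the D2 mice, with a coefficient of variation of 21.21% where counting error alone gives 2.710%.

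Of the 14 protein-coding genes, 9 had a near-identical coding gene. Eno1b, Tpm3-rs7, Hmga1b, Rps18-ps6, Btf3l4b and Eif3j2 had 1 or 2 exon blocks and D2 medians of 8.095 to 66.02 CPM. Hmga1b, a relative of the chromatin protein gene Hmga1, was at 15.64 to 19.28 CPM in D2 and 0.1294 to 0.9268 CPM in B6. Btf3l4b was at 11.94 to 13.64 CPM in D2 and 0.1058 to 0.9169 CPM in B6, and Eif3j2 at 7.352 to 8.649 CPM in D2 and 0.3077 to 0.9662 CPM in B6.

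The other 8 protein-coding genes had 4 to 61 exon blocks and lower levels, and Myh6, Serpina1b and H2-T15 among them were near-identical over part of their length to Myh7, Serpina1a and H2-T9. Gpa33, which encodes a cell surface antigen known from intestinal epithelium, was at 4.384, 5.234, 4.901, 4.339 and 5.170 CPM in D2. It was at 0.03588, 0, 0.05156, 0.2070 and 0.01849 CPM in B6. Its neighbour Mael, a gene of the germline piRNA pathway, was at 1.336, 1.251, 0.7877, 0.7334 and 1.503 CPM in D2 and at 0.0628, 0.02884, 0.02062, 0.2465 and 0.009243 CPM in B6. The 2 genes are adjacent on chromosome 1, 34691 bases apart, and both were highest among the B6 libraries in replicate 4.

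Myh6, which encodes a cardiac myosin heavy chain, was at 1.752 to 2.381 CPM in D2 and 0.009615 to 0.1775 CPM in B6. Serpina1b, a gene of the alpha-1 antitrypsin cluster, was at 1.283 to 1.670 CPM in D2 and at most 0.1085 CPM in B6. Ccnb1ip1, required for meiotic crossing over, was at 0.4599 to 1.082 CPM in D2 and at most 0.0493 CPM in B6. H2-T15, a nonclassical class I gene of the major histocompatibility complex, was at 0.6274 to 0.7789 CPM in D2 and at 0 counts in 3 B6 libraries. Ccdc7a and AAdacl4fm3 were under 0.9 CPM in every library, with D2 ranges of 0.3255 to 0.8227 CPM and 0.4683 to 0.6126 CPM.

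The question that follows from the sequences is how the near-identical coding genes were counted. A transcript of a protein-coding gene with at least 95% identity over at least 100 bases was found for 88 of the 100 genes and for 70 of the 72 pseudogenes. The identity had a median of 97.98%, and 41 of the 88 matches had 5 or fewer mismatches. Some matches were short. That of the lncRNA Gm10503 to Crbn covered 147 bases, or 3.04% of its exons. No near-identical transcript in the table was found for 10 genes, and Gpa33, Mael, Ccnb1ip1, Ccdc7a and AAdacl4fm3 were among them.

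The 88 genes matched 81 coding genes. The rule did not use the levels of these coding genes, but they were reached through the selected genes. A read of such a pair is placed by the few bases that differ, so their calls are not independent of the selection. In the edgeR quasi-likelihood fit over all genes, 52 of the 81 were called lower in D2 (64.2%) and 9 higher (11.1%), at an adjusted p under 0.05. Over the whole table, 9.83% of genes were called lower, 8.5% higher and 18.3% in either direction. The median log2 fold change (D2 minus B6) was -0.28 over the 81 genes and 0.00 over all genes. Where the match covered at least 80% of the exon bases, 48 of 65 were called lower. Without B6 replicate 4, 50 of the 81 were. This comparison was chosen after the data had been seen.

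Gapdh, counted at 1354, 1436, 1431, 1381 and 1497 CPM in B6, was at 1024, 1014, 1015, 969.5 and 1058 CPM in D2. Each D2 library was below each B6 library, with a log2 fold change of -0.52 ± 0.044 (SE; edgeR adjusted p = 2.9e-06). The D2 mean was 403.7 CPM below the B6 mean, and Gm13394 was at a mean of 203.6 CPM in D2. Gapdh and Gm13394 summed to 85.7% of the B6 sum.

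Atp6v0c was at 223.6, 221.3, 242.7, 217.9 and 257.7 CPM in B6. In D2 it was at 109.3, 102.2, 104.7, 97.93 and 105.7 CPM, lower by 1.19 ± 0.058 on the log2 scale (SE; edgeR adjusted p = 1.6e-08). Of the reads given to the pair in D2, 42.0% were counted for Atp6v0c-ps2, against 0.724% in B6. The sum of the pair in D2 was 76.5% of that in B6.

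Rnps1, which encodes a protein of the exon junction complex, was at 105.9 to 110.1 CPM in B6 and 49.15 to 52.78 CPM in D2, a log2 fold change of -1.11 ± 0.030 (SE; edgeR adjusted p = 1.7e-10). Cox7a2l, an assembly factor of respiratory supercomplexes, was at 92.60 to 98.65 CPM in B6 and 43.99 to 49.20 CPM in D2, a log2 fold change of -1.03 ± 0.039 (edgeR adjusted p = 2e-09). Hspa8 was at 895.3 to 1077 CPM in B6 and 662.9 to 739.1 CPM in D2, a log2 fold change of -0.55 ± 0.057 (edgeR adjusted p = 1.7e-05). With their D2-restricted near-copies added, the D2 sums were 59.2%, 82.8% and 87.4% of the B6 sums for Rnps1, Cox7a2l and Hspa8. Other near-identical genes were not added to these sums, and Gm15459 matched 7 genes. The sums for Hspa8 overlapped between the strains.

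The gene mt-Nd3, a mitochondrial subunit of complex I, showed the largest log2 fold change among the named coding genes that were lower, -4.25 ± 0.180 (SE; edgeR adjusted p = 5.2e-09), though its level was low. It was at 5.015, 5.202, 4.279, 4.427 and 4.132 CPM in B6 and at 0.2483, 0.2668, 0.21, 0.1414 and 0.3734 CPM in D2. Here Gm28438 held 98.6% of the reads of the pair in D2, and the sum in D2 was 355% of that in B6. With 1 mismatch in 345 aligned bases, the fold change describes reads as they were placed. A change in mt-Nd3 RNA itself was not tested. The ribosomal protein genes were mixed, since 5 of the 7 that match a D2-restricted gene were called lower in D2, among them Rpsa (337.1 to 144.9 CPM by the means), whereas Rpl15 was at 103.1 to 111.1 CPM in B6 and 105.3 to 108.7 CPM in D2.

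Not every near-identical gene was lower. Gpi1 was at 623.4 to 664.5 CPM in B6 and 612.0 to 640.6 CPM in D2, and its log2 fold change of -0.09 ± 0.035 did not pass (edgeR adjusted p = 0.085). Tuba1b, the match of Gm14150, was at 116.3 to 140.9 CPM in B6 and 133.8 to 145.4 CPM in D2. Serpina1a and H2-T9, which match Serpina1b and H2-T15, were among the 9 genes called higher, both at levels under 0.2 CPM in every library. Ublcp1, a reference gene of the study's quantitative PCR that matches Gm12663, fell from 33.92 ± 1.302 to 24.80 ± 1.355 CPM (SD, n = 5 per strain; edgeR adjusted p = 5.4e-06), and is named here after its values were seen. The study used it beside Sort1 and Ppp2r2a, and left it out in the amygdala because it differed between the strains there.

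Over all 81 coding genes, the median D2 level of the coding gene alone was 84.2% of the B6 level. It was 95% for the sum with the D2-restricted near-copies. These copies were selected as higher in D2, so adding them raises the D2 sum relative to B6 by construction. Other near-identical genes were not added, and the match covered at least 80% of the exon bases for only 65 of the 81. The sums were lower in every D2 library than in every B6 library for 32 genes, higher for 21, and overlapped for 28. Among single genes of the table, 8.74% were higher in every D2 library. A share for lower was not computed, and the sums include the selected copies. Whether the reads counted for a near-copy came from that copy or from the coding gene was not tested.

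**Figure D4:**
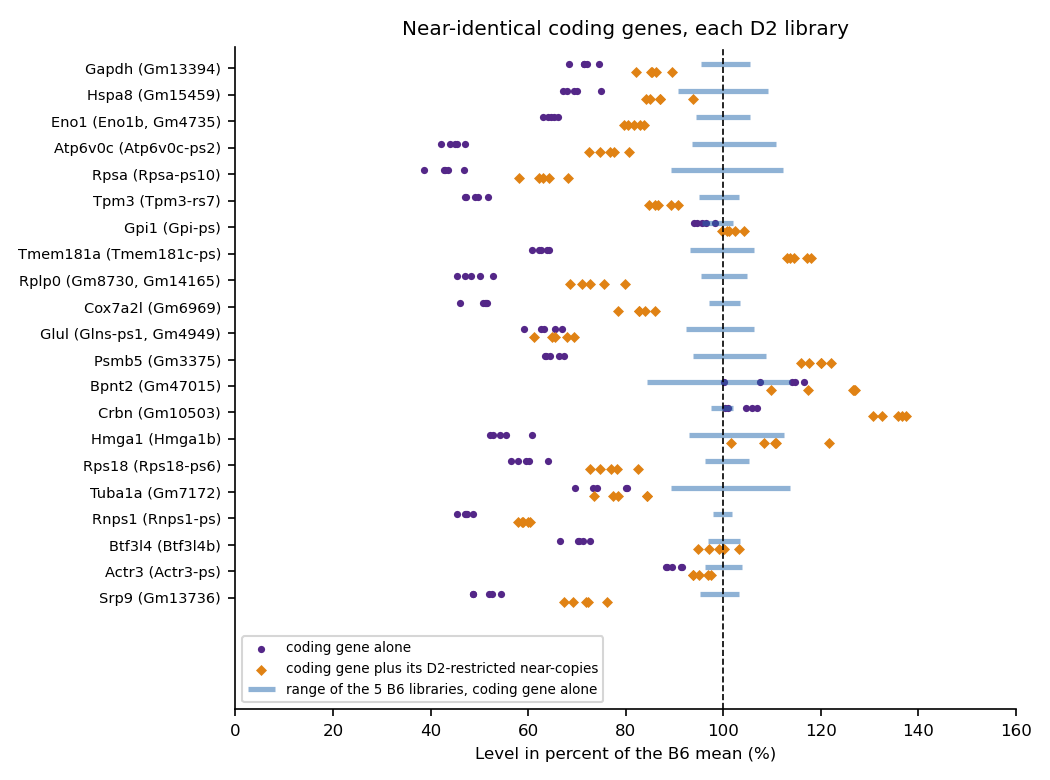
Near-identical coding genes of the 25 highest D2-restricted genes (in brackets), as percent of the B6 mean in each D2 library. Purple points show the coding gene alone, orange diamonds its sum with the D2-restricted near-copies, and blue bars the range of the B6 libraries. Most purple points lie left of the bar, and the mean sums of Gpi1, Tmem181a, Psmb5, Bpnt2, Crbn and Hmga1 lie right of 100%. The match of Crbn covers only 3.04% of the exons of Gm10503. The gene mt-Nd3 is left out because its sum reached 355%.

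Within 100 kb of the D2-restricted genes, 418 other genes were tested, of which 65 (15.6%) were called higher in D2 and 43 (10.3%) lower, where 8.5% and 9.83% of all genes were called. The share called lower was thus close to that of the table. The median log2 fold change was 0.03, and without B6 replicate 4 101 genes were called in place of 108. H2-Q2, a class I gene 35794 bases from Gm18734, was at 1.134 to 2.261 CPM in B6 and 0.2585 to 0.3711 CPM in D2, a log2 fold change of -2.39 ± 0.18 (SE; edgeR adjusted p = 8.1e-07). Msh5, a meiotic mismatch repair family gene 321 bases from Gm56899, was at 0.5961 to 0.8972 CPM in B6 and 2.810 to 3.514 CPM in D2, a log2 fold change of 2.10 ± 0.12 (edgeR adjusted p = 7.7e-08). The strains did not overlap for either gene, and the directions were opposite within the same region of chromosome 17.

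Of the other neighbours with the largest changes, Gm26782 fell by 2.09 and Ppp1r3e, a glycogen-targeting subunit of protein phosphatase 1, fell by 1.73 on the log2 scale. Dnah8, an axonemal dynein gene beside Gm10503, rose from 0.8795 ± 0.1099 to 3.294 ± 0.1593 CPM (SD, n = 5 per strain; edgeR adjusted p = 2.2e-08). Gm44559, H2-T24, Gm44562, Dynlt1c and Klhl33 rose by 0.84 to 1.27 on the log2 scale. Dynlt1c lies 1706 bases from Tmem181c-ps and rose from 1.282 ± 0.3396 to 2.570 ± 0.1728 CPM (SD, n = 5 per strain; edgeR adjusted p = 0.00049).

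**Figure D5:**
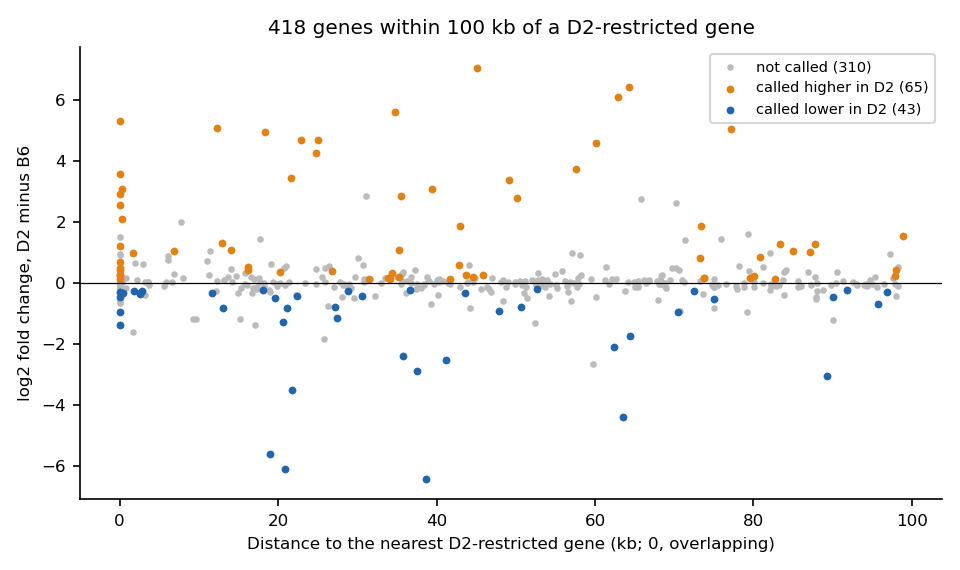
Log2 fold change (D2 minus B6) of the 418 genes within 100 kb of a D2-restricted gene, against the distance in kb, with overlapping genes at 0. The 65 genes called higher (orange) and the 43 called lower (blue) are spread over the whole distance, and 310 genes were not called (grey).

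Genes of the same family as a D2-restricted gene within 1 Mb numbered 21, and most were Serpina genes. Of the 21, 8 were called higher in D2 (38.1%) and 2 lower (9.52%), where 8.5% and 9.83% of all genes were called. Some of them, such as Serpina1a, Tmem181a, Usf2 and Rps18-ps4, are near-identical to a D2-restricted gene or overlap it. Their calls are therefore not independent of the selection. Of the Serpina genes around Serpina1b on chromosome 12, 7 were higher. Serpina3n, which encodes a secreted protease inhibitor of reactive astrocytes, was the only one of these 7 that exceeded 1 CPM. It was at 6.809, 7.913, 6.620, 7.128 and 6.489 CPM in B6 and at 20.06, 18.60, 14.41, 21.14 and 17.18 CPM in D2, a log2 fold change of 1.35 ± 0.093 (SE; edgeR adjusted p = 3.6e-07). Serpina1c had 0 counts in the B6 libraries and 55 in the D2 libraries together, and Serpina3m had 1 and 105.

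Not all of the cluster followed. Serpina9 was at 40.87 to 48.44 CPM in B6 and 37.91 to 51.22 CPM in D2 (log2 fold change 0.07 ± 0.074, edgeR adjusted p = 0.6). Myh7, 2254 bases from Myh6 and the gene of the other cardiac myosin heavy chain, was at 14.15 to 20.58 CPM in B6 and 18.09 to 20.89 CPM in D2 (edgeR adjusted p = 0.55). Tmem181a fell from 67.45 ± 3.625 to 42.33 ± 0.9582 CPM (SD, n = 5 per strain; edgeR adjusted p = 2e-08), while Tmem181b-ps was at 7.486 to 8.755 CPM in B6 and 7.679 to 8.601 CPM in D2. The other 2 genes called were Usf2, lower by 0.23 on the log2 scale, and Rps18-ps4, an antisense lncRNA that shares 96.4% of the exon bases of Rps18-ps6.

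Such overlaps were counted for the D2-restricted genes alone, without a share over all genes to set beside them. Another annotated gene overlapped 63 of the D2-restricted genes, and 32 shared exon bases with it, 15 on the same strand and 17 on the opposite strand only. Some of these other genes, such as Gm75782 over Gm4735, are not among the genes of the table. Without a stated strand setting, reads of overlapping genes on opposite strands cannot be assigned with certainty. Gm44958 shared 78.4% of its exon bases with Magohb on the same strand, and H2-T15 shared 53.5% with the antisense lncRNA Gm6034.

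The 3 lists of gene families examined, the Ifi200 family, the major histocompatibility complex (MHC) class II genes and the zinc finger genes named by symbol, held none of the D2-restricted genes. Of the Ifi200 family of interferon-inducible genes, 10 were measured, 1 was called higher in D2 and 5 lower. Of 11 MHC class II genes, 4 were higher and 4 lower. Of 439 zinc finger genes, 68 were higher and 46 lower, where 8.5% and 9.83% of all genes were called in these directions. In each of the first 2 lists a gene had reads almost only in D2 but lay under the floor of 0.5 CPM, and these are named here after their values were seen. H2-Ea, an MHC class II gene, was at 0.005615 ± 0.005136 CPM in B6 and 0.4265 ± 0.1338 CPM in D2 (SD, n = 5 per strain; edgeR adjusted p = 1e-06). Ifi202b was at 0.006006 ± 0.008871 CPM in B6 and 0.2005 ± 0.05221 CPM in D2 (SD, n = 5 per strain; edgeR adjusted p = 3.6e-05).

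The D2-restricted genes included no marker of the cell types examined either. The striatal neuron markers summed to 3510 to 4770 CPM in B6 and 3100 to 3780 CPM in D2, and 5 of the 8 were called lower in D2. The cortical neuron markers ranged from 69.9 to 866 CPM in B6 and 203 to 551 CPM in D2, and none of the 4 was called by edgeR or DESeq2 or had an unadjusted p under 0.05, a count of 0 in each case. Calls among the other lists were 1 of 4 lower for choroid plexus, 3 of 5 lower for blood, 1 of 4 higher for microglia, 2 of 3 lower for astrocytes and 1 of 3 lower for oligodendrocytes. Over all genes, 8.5% were called higher and 9.83% lower. The choroid plexus call was Folr1, at 0.04973 CPM in B6 and 0.001767 CPM in D2. Ttr, Kl and Kcnj13 had positive log2 fold changes and were not called. The blood calls were Hba-a2, Hbb-bt and Alas2, whereas Hba-a1 and Hbb-bs were not called. Of the 3 measured genes each for T and NK cells, B cells, endothelium and ependyma, edgeR called 0. In these lists an unadjusted p under 0.05 was found for 1 gene of T and NK cells and 1 of endothelium, and DESeq2 called 1 gene of endothelium. Their part in the levels of the D2-restricted genes was not tested.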

How the data were processed

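The deposited table holds raw counts per gene, 1 column per library of 5 B6 and 5 D2 mice. The authors trimmed reads with fastp, aligned them with STAR 2.7.10b to the Ensembl GRCm39 genome, sorted them with SAMtools 1.6 (versions per the submitters' processing notes), counted them with featureCounts and removed genes with a median count of 0. The kit was stranded, but the strand setting and the treatment of reads with several matches are not given in the sources used here. The 100 genes and all lists were chosen with earlier results of these data known.

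Counts were divided by column totals (CPM) for the selection and all levels. Strain was tested over all 29883 genes by the two-sided quasi-likelihood test of edgeR 4.0.16 after TMM scaling (Benjamini-Hochberg adjustment, threshold 0.05) in R 4.3.3. On simulated data, 200 of 200 genes changed by 1 log2 unit were found, with 7 false calls. The simulation gave every gene the same dispersion and changed no gene of few counts. It therefore does not cover rare genes, smaller changes or differences among libraries of a strain. Each mouse was 1 replicate. The B6 libraries were unequally alike by a mean chi-square per pair of libraries over 15388 genes. B6 replicates 3 and 5 were closest, at 4.89, and pairs among replicates 1, 2 and 4 were at 19.1 to 23.8. Pairs between these sets were at 85.5 to 119, against 17.5 to 51.2 within D2. The source of this split was not tested. Biotypes and positions came from GENCODE vM39 (GRCm39), which lacks 364 of the identifiers. Near-identical transcripts were found with BLAST 2.17.0. Named genes were the 25 members of highest D2 median, protein-coding members with a gene name, members nearest the limits, the 10 neighbours with the largest changes among those called with a mean of at least 100 counts, same-family genes, the longest near-identical match of a named member, and runs of 3 or more. Further matches, overlaps and members without a match were named after their values were seen. Other scalings, filters, limits, distances, DESeq2 1.42.0 and the omission of each mouse were tried as alternatives. CPM errors are between mice, and counting error at this depth is small except for the rarest genes.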

Additional observations from a re-analysis of the deposited data

Results flagged for a closer look

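A library was marked where its gap to the nearest other library of its strain, divided by the range of the 5 libraries, exceeded 0.71. Chance marks about 1 in 20 groups, and 34 of the 175 groups checked were marked. For the summed level of the D2-restricted genes the gap of B6 replicate 4 was 0.799 of the B6 range, on the high side. The same library was marked as high for 24 of the 34 named D2-restricted genes checked, among them Gm15459 at 12.42 CPM against 3.577 to 5.434 CPM in the other B6 libraries. The remaining mark among these genes was D2 replicate 5, high for 1 gene, Gm13394 (216.7 CPM against 198.4 to 203.0 CPM).

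Among 54 other named genes, B6 replicate 4 was high for 2, Serpina3m and H2-T9, each of which had its only B6 count there. The other marks fell on 1 gene each, with B6 replicate 1 low for Usf2 (57.60 CPM), B6 replicate 5 high for Serpina1d, D2 replicate 2 high for Atp6v0a4 (0.23 CPM), D2 replicate 4 high for Gm26782 (4.860 CPM) and low for Cox7a2l (43.99 CPM), and D2 replicate 5 high for Dnah8 (3.571 CPM) and low for H2-T24 (2.470 CPM).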

How the results depend on the processing

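The number of D2-restricted genes was 100 with TMM or DESeq2 size factors. It was 24 with a limit of 1%, 58 with a D2 median of at least 2 CPM and 15 when every mouse had to meet the limits. Without 1 library each it was 99 to 113, and the summed B6 level was 1.51% to 2.86% of that in D2, the lowest without B6 replicate 4 against 2.48% with all. Genes called nearby numbered 45 within 25 kb, 199 within 250 kb and 638 within 1 Mb, against 108 within 100 kb, of which 95 overlapped no D2-restricted gene, and 93 to 111 without 1 library each. Same-family calls were 6 of the genes kept by filterByExpr and 3 with at least 10 counts in every library, against 10, since fewer genes were tested, and 10 to 11 without 1 library each. The near-identical coding genes called lower were 31 of 42 at 98% identity, against 52 of 81, and 49 to 54 in the other fits and omissions. All genes called ranged from 4636 to 5676 without 1 library each. With total counts in place of TMM, 45.0% of all calls were lower in D2, against 53.6%. Tmem181b-ps, not called and at -0.000709, changed sign to 0.000826 with DESeq2, 0.000582 with DESeq2 size factors, 0.0302 with total counts, and 0.0294, 0.00698 and 0.0231 without B6 replicate 4, D2 replicate 1 and D2 replicate 5, in a range of -0.0244 to 0.0294 without 1 library each. Replicate numbers did not pair the mice, with correlations of same-numbered mice between -0.407 and 0.368, and a replicate block gave 4731 calls in all, 99 nearby, 10 in the same families and 50 near-identical coding genes lower. The annotation used is later than that of the authors, and genes under 1 CPM rest on few counts in B6.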
